A study of Rattus norvegicus with 4 samples.

Results

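Red blood cells are described here as they were caught among dispersed cells of the rat anterior pituitary and sequenced with them. A cell was counted as a red blood cell where Hbb, Hbb-b1, Hba-a1 and Hba-a2, adult globin genes, made up at least 30% of its unique molecular identifiers (UMIs, each standing for 1 captured mRNA molecule). The count table lists Hba-a1 and Hba-a2 as Hba1 and Hba2, and these names are used from here on. The rule found 393 cells among 7861, or 4.999% (95% exact binomial interval 4.528 to 5.504%, which covers counting error only). The globin values chose the cells, so they are given as a description without a test.

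The cells came from Sprague Dawley rats, 1 pool of 4 pituitaries from females in diestrus at 44 days of age and 1 pool of 4 pituitaries from males at 59 days. No animal was treated, and each pool was run on 2 lanes of a droplet device with 3′ end counting. Lanes of a sex are therefore technical replicates, p-values measure only the spread between lanes, and sex, pool and age cannot be told apart. The 4 lanes are named by their sex and their numbers of cells, and lists of 4 values follow the order female lane with 1868 cells, female lane with 1861 cells, male lane with 2047 cells and male lane with 2085 cells. Red blood cells numbered 103, 112, 86 and 92 in these lanes. Both female lanes held a larger share of them, 5.51% and 6.02% against 4.20% and 4.41% in the male lanes, but with 2 lanes a sex no permutation test can pass 0.05, and the exact 95% intervals of the first lane of each sex, 4.52 to 6.65% and 3.37 to 5.16%, overlapped. Over both lanes of a sex the shares were 5.77% (5.04 to 6.56%) in females and 4.31% (3.71 to 4.97%) in males, intervals that did not overlap but cover counting error only. Of the 7861 cells, 60 had a barcode that occurred in another lane too, 4 of them red blood cells. Eif2s3y, a gene of the Y chromosome, had 0 and 1 UMIs in the female lanes and 2038 and 2100 in the male lanes, and Kdm5d had 0, 0, 228 and 264. Ddx3y, with 10, 8, 11 and 14, did not separate the lanes.

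Red blood cells fill themselves with haemoglobin, a tetramer of a pair of alpha chains and a pair of beta chains, each holding haem. As they mature they expel the nucleus and later clear mitochondria and ribosomes, and the mRNA that is left belongs to the last stage, the reticulocyte, which still translates globin. In a tissue perfused with blood such as the pituitary, red cells come with the vessels and are not part of the gland. The rat carries several adult beta genes side by side on 1 chromosome and several alpha genes on another, and copies are so alike that reads of 3′ ends may be split between them in ways that cannot be checked here.

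The start regions of the 7 globin genes that gave most of the globin UMIs show how alike the copies are. Each sequence is the 120 bases just before the annotated start, from RefSeq for the assembly GRCr8, read 5′ to 3′ on the minus strand of the chromosome, on which all 7 genes lie. Capitals mark matches, on either strand, to the motifs CACACCC, then CCAAT, and also ATAAA, forms of the boxes known from textbook globin promoters, the last being part of the TATA element.
Hbb, chr1:167663722-167663841: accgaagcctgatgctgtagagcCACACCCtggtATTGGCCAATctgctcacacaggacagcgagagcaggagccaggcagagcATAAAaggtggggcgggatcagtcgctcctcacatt
LOC100134871 (RefSeq Hbbl1), chr1:167650236-167650355: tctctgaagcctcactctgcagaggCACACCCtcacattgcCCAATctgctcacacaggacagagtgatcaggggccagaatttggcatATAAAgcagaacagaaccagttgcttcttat
Hbb-b1, chr1:167643521-167643640: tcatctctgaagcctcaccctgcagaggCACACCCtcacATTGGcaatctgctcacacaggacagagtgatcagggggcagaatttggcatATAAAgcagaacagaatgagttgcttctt
LOC689064 (RefSeq Hbb-bs), chr1:167631631-167631750: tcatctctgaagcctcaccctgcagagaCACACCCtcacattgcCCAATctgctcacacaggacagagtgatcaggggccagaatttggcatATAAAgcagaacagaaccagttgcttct
Hba1 (RefSeq Hba-a1), chr10:15842581-15842700: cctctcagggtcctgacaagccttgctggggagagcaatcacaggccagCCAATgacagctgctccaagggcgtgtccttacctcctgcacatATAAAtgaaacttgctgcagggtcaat
Hba2 (RefSeq Hba-a2), chr10:15829139-15829258: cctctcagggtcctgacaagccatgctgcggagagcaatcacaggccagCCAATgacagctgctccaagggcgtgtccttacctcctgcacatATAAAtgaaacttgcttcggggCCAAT
LOC287167 (RefSeq Hba-a3), chr10:15816944-15817063: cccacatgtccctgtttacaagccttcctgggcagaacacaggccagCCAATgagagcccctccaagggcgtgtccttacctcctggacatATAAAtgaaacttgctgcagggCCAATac

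All 7 windows held CCAAT and ATAAA, and the 4 beta genes held CACACCC as well, while the 3 alpha genes did not. In Hbb-b1 the only CCAAT match was on the opposite strand. Hba2 and LOC287167 held a further CCAAT match at 5 to 1 and 7 to 3 bases before the start. Among the 33469 windows of the same length in the RefSeq table, 3.11% held CACACCC, 19.9% CCAAT, 21.5% ATAAA and 0.0986% all of these. The GATA forms AGATAA and TGATAA were in 0 of the 7 windows, against 4.57% and 3.55% of all windows. A match is a description of letters and not a binding site. Hbb stood apart from the other beta genes: its window was 69.9% identical to that of LOC100134871, 68.3% to that of Hbb-b1 and 68.3% to that of LOC689064, whereas those 3 were 91.1% to 94.2% identical to one another. The windows of Hba1 and Hba2 were 95.8% identical, and that of LOC287167 was 83.2% identical to Hba1 and 81.6% to Hba2.

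The share taken by the 4 genes of the rule ranged from 32.3% to 83.0% among the 393 cells, with a median of 66.7%. Its distribution had 2 modes, with 160 cells from 50 to under 60% and 172 cells from 70 to under 80%. Lane medians were 71.9%, 71.8%, 59.2% and 58.2%, so that both female lanes lay above both male lanes. With the 8 further globin genes of the table added (LOC100134871, LOC689064, LOC287167, Hbq1b, Hbg1, Hbe1, Hbe2 and Hbz), the median rose to 97.0% and the lane medians came together at 97.0%, 97.0%, 96.8% and 97.0%. By all 12 genes, 384 of the 393 cells held at least 90% globin. Over all red blood cells, the 4 genes of the rule made up 64.9% of 3503721 UMIs and the 12 genes 95.8%.

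**Figure D1:**
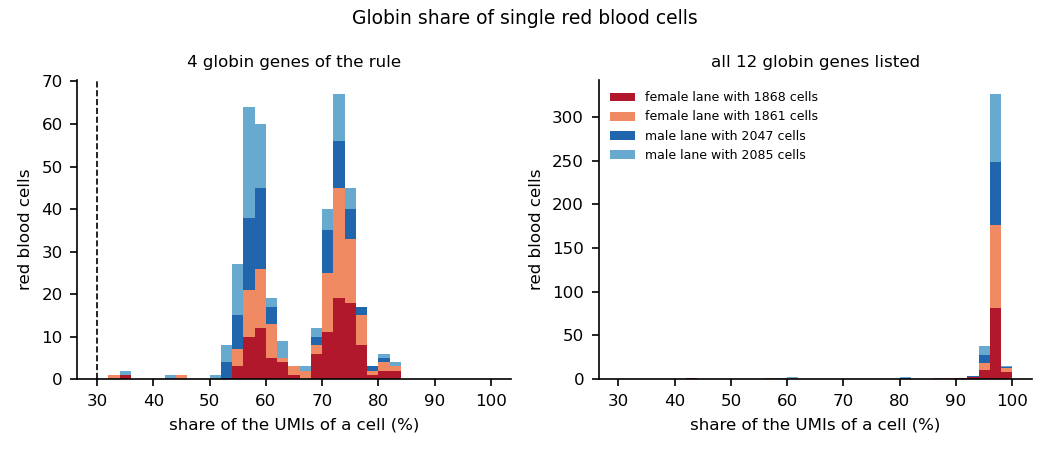
Histograms of the globin share of single red blood cells (x axis, percent of the UMIs of a cell; y axis, number of cells, bars stacked by lane), left for the 4 genes of the rule with the 30% limit as a dashed line, right for all 12 globin genes. The left panel has 2 modes, and in the right panel 384 of 393 cells are at 90% or more.

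The limit fell in a stretch with few cells. Among the other cells, 7450 held under 1% of the 4 genes and 18 held from 1 to under 30%. The 5 members nearest to the limit held 32.3%, 34.2%, 35.8%, 43.6% and 45.5%, and the 5 cells just outside held 26.6%, 21.9%, 21.5%, 17.98% and 17.7%. Members of this range were mixed: of the 9 red blood cells with under 90% globin by all 12 genes, 3 also met a marker rule of another type (at least 2 of 4 marker genes above threshold), leukocytes in 2 and endothelial cells in 1, all of them in the female lanes. All 18 cells from 1 to under 30% met such a rule. Every one of the 393 members met the globin marker rule of the study, and so did these 18.

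In depth, red blood cells resembled the other cells, with a median of 8310 UMIs (range 3099 to 27664) against 8908.5. They held far fewer genes, 139 at the median against 2707.5. Outside the globin genes a red blood cell had a median of 248 UMIs (range 54 to 8512), and the 4 lanes together had 34188, 44260, 30093 and 38663. All levels below are UMIs per 10000 UMIs outside the 12 globin genes, and they rest on these totals. Alpha and beta transcripts were near balance: beta genes gave 48.8%, 48.5%, 49.7% and 49.3% of the globin UMIs of the 4 lanes. Across the 393 cells, alpha and beta UMIs had a Spearman correlation of 0.94, a description in which both share the depth of the cell.

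Hba1 was the most abundant transcript, at 32.7%, 32.8%, 31.9% and 32.6% of all red blood cell UMIs in the 4 lanes (32.5 ± 0.395%, SD, n = 4 lanes). Hba2 followed the same even pattern at 15.59%, 15.57%, 15.77% and 15.002%. The alpha genes thus varied little between lanes. LOC100134871, an adult beta gene outside the rule, was second with 23.1%, 24.0%, 26.3% and 28.0%, lower in both female lanes. Hbb, a beta gene of the rule as is Hbb-b1, ran the opposite way, with 16.2%, 14.95%, 12.8% and 10.03%. LOC689064 had 4.26%, 4.37%, 5.499% and 5.44% and Hbb-b1 3.27%, 3.10%, 3.26% and 3.63%. LOC287167, the other alpha gene, stayed under 1%, at 0.805%, 0.809%, 0.703% and 0.740%. Of the genes of embryonic or minor chains, Hbq1b (theta) had 394 UMIs in all, Hbg1 21, Hbe1 5, Hbz 4 in 1 cell and Hbe2 0, which over the red blood cells allows up to 3 UMIs.

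Red blood cells fell into 2 separate kinds by their beta genes, a split that was chosen after its values were seen and is described without a test. Hbb made up 34.8% to 53.8% of the beta-globin UMIs in 199 cells and 8.81% to 22.9% in the other 194, and no cell lay between 22.9% and 34.8%. LOC100134871 mirrored it, at 34.4% to 49.2% in the first kind and 58.8% to 77.9% in the second. The medians of the higher-Hbb kind were 45.9% Hbb, 40.4% LOC100134871, 7.86% LOC689064 and 5.79% Hbb-b1. In the lower-Hbb kind they were 13.4%, 66.9%, 12.3% and 7.86%. Hbb is also the beta gene whose start region, printed above, differs most from the others. The 2 abundant alpha genes did not follow the split: Hba1 held 66.9% of alpha-globin UMIs at the median in one kind and 67.5% in the other, and Hba2 31.4% and 31.6%. LOC287167 held 1.25% and 0.943%, with lane medians of 1.66%, 1.27%, 0.752% and 1.10% in the higher-Hbb kind and 0.840%, 0.974%, 0.766% and 1.09% in the lower-Hbb kind.

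Both kinds were present in every lane. The higher-Hbb kind made up 68 of 103, 69 of 112, 35 of 86 and 27 of 92 red blood cells, or 66.0%, 61.6%, 40.7% and 29.3%. In the 2 female lanes together it was 63.7% and in the male lanes 34.8%. With 1 pool of animals per sex, this difference has no test. Within a kind, the share of the 4 rule genes hardly moved between lanes, from 72.4% to 73.8% at the median in the higher-Hbb kind and from 57.3% to 58.7% in the lower-Hbb kind. The difference between female and male lanes in the rule share thus went with the proportion of the kinds. The labels do not say from which of the 4 animals of a pool a cell came, and whether the kinds follow animals was not tested.

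**Figure D2:**
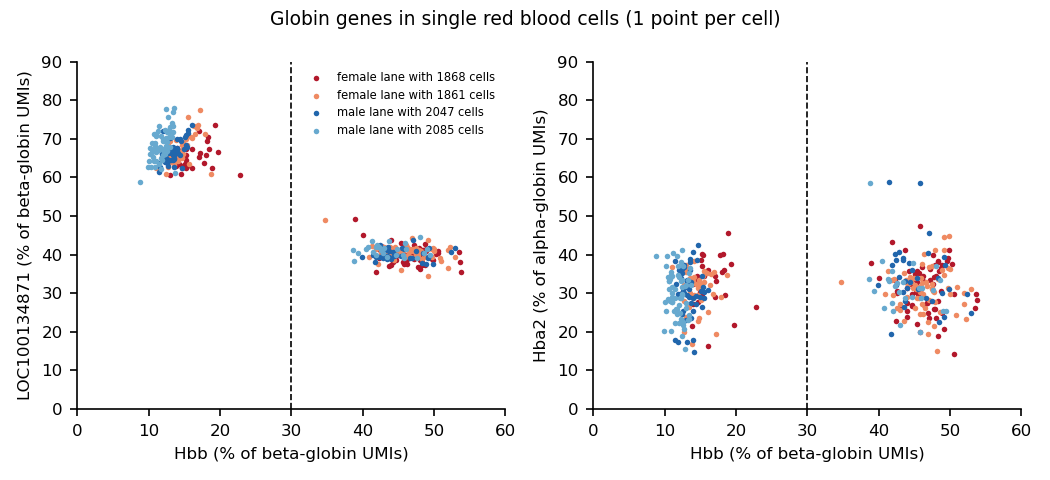
Each point is 1 of the 393 red blood cells, coloured by lane. The x axis is Hbb as a percentage of beta-globin UMIs with a dashed line at 30%, and the y axes are LOC100134871 as a percentage of beta-globin UMIs (left) and Hba2 as a percentage of alpha-globin UMIs (right). Cells form 2 groups on the left, with 199 right of the line and 194 left of it, while Hba2 runs from 14.8% to 45.5% left of the line and from 14.1% to 58.8% right of it.

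Size and globin content were close in both kinds at the median, with no test. Medians were 8246 UMIs and 140 genes in the higher-Hbb kind and 8315.5 UMIs and 138 genes in the lower-Hbb kind, with all-globin shares of 97.0% in both. Among cells of at least 90% globin that met no other marker rule, 239 genes had at least 60 UMIs, and 10 of them differed by at least 1.5-fold in the same direction in all 4 lanes. LOC685963 showed the largest difference, with 64 UMIs in 193 higher-Hbb cells and 21 in 191 lower-Hbb cells. Fos, an immediate early gene, had 51 and 27, and Emb, embigin, a membrane glycoprotein, had 60 and 115. These few genes were picked by their size and have no test. Alpha genes varied in other ways: Hba2 exceeded Hba1 in 4 cells, all of the higher-Hbb kind, of which 3 in the male lanes held 58.4% to 58.8% Hba2 and 1 in the female lane with 1868 cells held 47.4% Hba2 and 44.3% Hba1. LOC287167 was under 0.2% of alpha-globin UMIs in 104 of the 393 cells (26.5%), from 25.2% to 28.3% in each lane, and reached 9.22% elsewhere.

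The remaining transcripts of red blood cells were compared with those of all other cells in the same lanes. Among 13952 genes tested with edgeR (quasi-likelihood, UMIs summed per lane, lane as a block, Benjamini-Hochberg adjusted p under 0.001, the 4 rule genes left out), 277 were higher in red blood cells, a background of 1.99%, and 256 were lower, 1.83%. Over all genes tested the log2 fold change had a median of -1.83 after the TMM scaling, against -4.70 with library size only and -0.06 with DESeq2, so that a moderate change is read against that shift. In DESeq2 the calls were 328 higher and 8 lower, with 272 of the 277 higher genes shared. Library size only gave 119 higher and 8012 lower. Among cells of at least 90% globin 306 were higher and 614 lower with a median of -7.62, and the 9 members under 90% held 35045 of the 147204 UMIs outside globin. A limit of 50% gave 305 and 544. The number of lower genes fell to 111 without the female lane with 1868 cells and to 134 without the female lane with 1861 cells. Of the genes tested, 32 reached the level that the filter on low counts asks for (1.09 CPM) in red blood cells only and had to differ. All 32 are among the 277, Tspo2, Slc4a1, Epb42, Kel, Ca1, Hemgn, Nfe2, Hbg1 and Hbq1b among them, so that the counts of higher genes in the lists that follow are a description.

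Genes of haem synthesis held the most abundant transcript outside globin. Alas2, the erythroid form of the enzyme for the first step of the pathway, had 388, 368, 454 and 353 UMIs per 10000 in the red blood cells of the 4 lanes and 0.0234 ± 0.0114 (SD, n = 4 lanes) in other cells. It was found in 98.7% of red blood cells and in 0.504% of leukocytes, whose median depth was 6470 UMIs. Its log2 fold change was 13.95 ± 0.27 (SE). The lanes did not separate by sex. Fech, ferrochelatase, which puts iron into the ring in the last step, had 52.9, 51.1, 78.1 and 53.8 against 0.231 ± 0.0150 in other cells. Of 13 genes of this list tested, 7 were higher in red blood cells and 0 lower, with a median log2 fold change of 2.64 against -1.83 for all genes. Scaling by library size only gave 4 higher and 1 lower (Tmem14c), and the median turned to -0.25 against -4.70. Without 1 cell described below the counts were 6 and 0 and the median 1.66. Among the others were Urod (2.95), Slc25a37, the mitochondrial iron carrier mitoferrin (6.06), Slc25a38, the mitochondrial glycine carrier (3.56), and Tspo2 (10.00).

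Among genes of iron handling, those of storage were abundant. Fth1 and Ftl1, the heavy and light chains of ferritin, had 320 ± 62.0 and 156 ± 35.4 UMIs per 10000 (SD, n = 4 lanes) against 47.3 and 4.53 in other cells, with log2 fold changes of 2.55 and 4.90. These were the 2 genes called higher of 7 tested, and 0 were lower. With library size only, Fth1 lost its call, at a log2 fold change of -0.33, and 1 gene of the list was higher and 3 were lower (Hmox1, Pcbp1 and Ireb2), with a median of -2.83. Tfrc, the transferrin receptor of immature red cells, had 4 UMIs in all red blood cells, 3 of them in 1 cell described below. Per 10000 UMIs it was at 0.306 against 0.0401 in other cells and was not called. Steap3, the endosomal ferrireductase, had 0 UMIs and 116 in other cells. At 0.0137 per 10000 there, its 0 cannot be read. Slc40a1, the iron exporter ferroportin, had 0 UMIs and 1 in other cells, too few anywhere to be read.

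Among genes of the red cell membrane and its skeleton, 10 of 15 tested were higher and 0 lower, with a median log2 fold change of 4.04. Scaling by library size only gave 7 higher and 2 lower (Cd47 and Slc2a1), with a median of 1.15. Slc4a1, the anion exchanger band 3, had 4.97, 6.78, 8.97 and 3.88 UMIs per 10000, and its log2 fold change was 10.36 ± 0.52. All 4 lanes were far above the other cells, and the lanes of the sexes overlapped. Kel, the Kell blood group antigen, had 42 UMIs and 1 in all other cells. Rhd (7.10), Epb42, a band 3 binding protein of the skeleton (11.43), Aqp1, the water channel (7.30), and Add2, beta adducin (6.87), passed as well. Sptb (8 UMIs), Tmod1 (10 UMIs) and Gypc (15 UMIs) also passed. Sptb and Tmod1 lost the call with any lane left out, with the lowest values at 3.32 for Sptb without the female lane with 1861 cells (adjusted p = 0.181) and 2.75 for Tmod1 without the female lane with 1868 cells (adjusted p = 0.165). Gypc lost it without any lane but the female lane with 1868 cells, and fell to 1.74 without the male lane with 2047 cells (adjusted p = 0.518). It also lost the call without 1 cell described below, which held 9 of its 15 UMIs, at 1.65 (adjusted p = 0.254). Without that cell 9 genes of the list were higher and 0 lower. Ank1, ankyrin, had 1 UMI and was not tested.

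Red cell enzymes were higher for 8 of 15 genes tested and lower for 2. Bpgm, which makes the 2,3-bisphosphoglycerate that sets the oxygen affinity of haemoglobin, had 92.4, 85.9, 107 and 76.3 UMIs per 10000 against 0.861 ± 0.0222 in other cells (log2 fold change 6.51 ± 0.25). Prdx2, a peroxiredoxin abundant in red cells, had 131, 105, 145 and 109 against 6.42 (4.05 ± 0.21). Car2, carbonic anhydrase 2, had 87.8, 60.3, 105 and 71.9 against 0.186 (8.57 ± 0.28). The highest lane was the male lane with 2047 cells for all of these, and the sexes overlapped. Cat (catalase, 5.05), Gpx1 (3.51), Blvrb (4.45), Glrx5, for iron-sulphur clusters (5.43), and Ca1 (9.34) were the others. Gapdh, of glycolysis, and Sod1, superoxide dismutase, were lower, at -1.34 and -1.46. Neither value was below the median of all genes, and DESeq2 called 0 of the list lower.

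Transcription factors were sparse. Hemgn, hemogen, a nuclear protein of erythroid cells, had 9.65, 8.59, 19.9 and 11.1 UMIs per 10000 and only 6 UMIs in all other cells. Klf1, the erythroid Krüppel-like factor, had 3.51, 3.62, 3.66 and 2.33, and Nfe2 1.17, 1.13, 1.99 and 2.07. Of 10 genes of the list tested, these 3 were called higher (log2 fold changes 13.65, 6.92 and 8.85) and 0 lower, but Hemgn and Nfe2 passed the filter through red blood cells only. With library size only, 5 others were lower. Gata1, the master factor of the lineage, had 0 UMIs in red blood cells and 0 in all other cells, so that its level cannot be judged from this table. Tal1 and Gfi1b had 1 and 3. Of the 6 progenitor and cell cycle genes on the list (Epor, Kit, Cd34, Mki67, Top2a and Ccnb1), 0 were called in either direction by edgeR, and Kit and Top2a had 0 UMIs.

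Genes of late maturation, which remove organelles and proteins, gave the largest number of higher calls among the erythroid lists, and theirs was the longest list. Of 27 tested, 17 were higher and 2 lower (Btg2 and Bsg, neither of them by DESeq2), with a median log2 fold change of 2.67. With library size only, 10 were higher and 7 lower, with a median of -0.20 against -4.70 for all genes. Without 1 cell described below, 16 were higher and 2 lower, and Ube2l6 lost its call, at 2.26 (adjusted p = 0.00465). Mkrn1, a ubiquitin ligase, had 114, 98.96, 128 and 93.1 UMIs per 10000 against 0.657 in other cells, and Bnip3l, the receptor by which reticulocytes clear mitochondria, 104, 100.3, 115 and 92.6 against 2.14. Isca1, of iron-sulphur cluster assembly, had 90.1, 85.9, 101.4 and 72.7. The levels of these 3 genes were close to each other and to that of Bpgm. Ahsp, the chaperone of free alpha globin, was lower in both female lanes, with 28.4 and 37.5 against 63.8 and 47.6. The log2 difference between the sexes was -0.77 ± 0.30, which edgeR did not call (adjusted p = 0.277). Without the male lane with 2085 cells it was called, at -1.02 (adjusted p = 0.000871), but 1 cell described below held 71 of the 192 Ahsp UMIs of the other male lane. Without that cell the lane was at 44.4 UMIs per 10000 and the difference at -0.55 (adjusted p = 0.122), or -0.49 with both male lanes (adjusted p = 0.816). Autophagy genes were present with Map1lc3b at 38.5 ± 5.08 and Gabarapl2 at 13.5 ± 2.48 (SD, n = 4 lanes), both past the test.

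**Figure D3:**
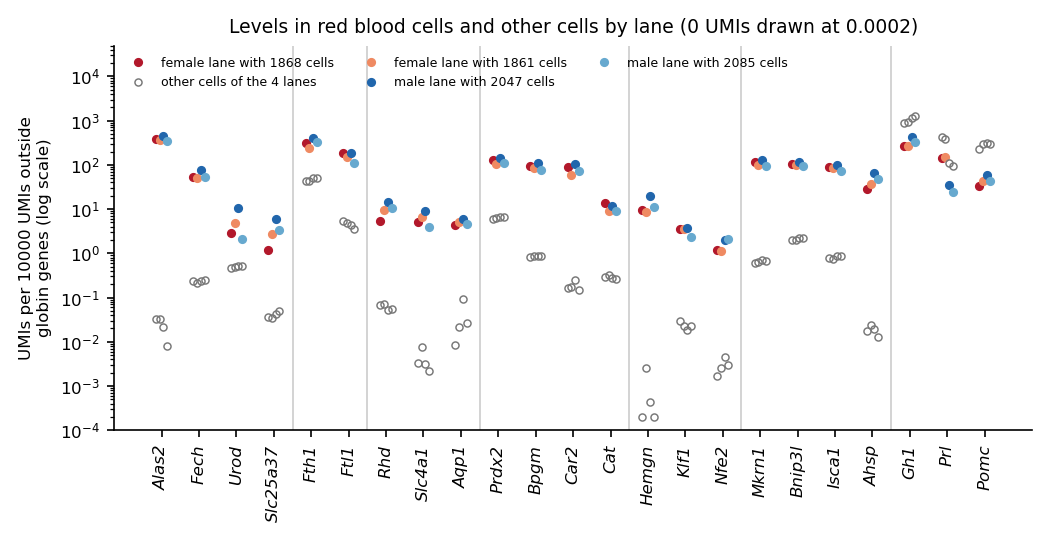
Levels of 23 genes in UMIs per 10000 UMIs outside globin genes (y axis, log scale), with filled points for red blood cells of each lane and open grey points for the other cells of the 4 lanes. Vertical lines part haem synthesis, iron, membrane, enzymes, transcription factors, late maturation and hormones. Red blood cells lie above the other cells for every gene but the hormones Gh1, Prl and Pomc, which lie below those of the same lane.

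By the size of their fold change, the 20 leading genes outside the 12 globin genes with at least 50 UMIs in red blood cells included Alas2, Hemgn, Ahsp, Slc4a1, Car2 and Fech from the lists above and 13 genes outside them. Of these 13, Alox15, the lipoxygenase known from reticulocytes, was the most abundant, with 57.3, 64.2, 106 and 81.5 UMIs per 10000 and a log2 fold change of 12.74 ± 0.34. Lgals5, the rat galectin of red cells, had 74.6, 65.7, 52.8 and 42.2 (12.82 ± 0.35). The female lanes were below the male lanes for Alox15 and above them for Lgals5, with log2 differences of -0.64 ± 0.27 and 0.55 ± 0.28 that edgeR did not call (adjusted p = 0.356 and 0.540). Cd52, a surface glycoprotein anchored by lipid, had 34.8 ± 9.82 (13.23 ± 0.40) and Rbm38, an RNA-binding protein, 37.1 ± 2.04 (9.52 ± 0.33). The rest were LOC102552786, Ifit1lb, Slc38a5, Phospho1, Cdc25b, Isca1-ps1, RGD1309350, Park2 and Tmem86b, with log2 fold changes from 7.80 for Tmem86b to 10.95 for LOC102552786. Cd52, Ifit1lb, Slc38a5, Phospho1 and RGD1309350, like Hemgn and Slc4a1, lay under the minimum of the filter on low counts in other cells. They passed it through red blood cells only and had to differ, so their fold changes are a description. The globin genes LOC689064 (14.73), LOC100134871 (14.24), Hbq1b (14.14) and LOC287167 (13.10) would also have been among the 20 and were left out of the ranking. Isca1-ps1 is listed as a pseudogene of Isca1, so reads of the gene may have been counted there.

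Among the most abundant transcripts outside globin, Tpt1, the translationally controlled tumour protein, followed Alas2, Gh1 and Fth1, with 277 ± 39.0 UMIs per 10000 against 36.5 ± 3.96 in other cells (log2 fold change 2.72). With library size only the value of Tpt1 turned to -0.15. Ribosomal protein genes as a group were not higher: of 83 tested, 0 were called higher and 44 lower, with a median log2 fold change of -1.24 against -1.83 for all genes, and DESeq2 called 0 in either direction. With library size only, 0 were higher and 82 lower, with a median of -4.11 against -4.70. Among cells of at least 90% globin, 1 was higher and 62 lower, with a median of -1.68 against -7.62. A red blood cell held 40.04, 45.2, 27.7 and 50.7 UMIs of these genes at the mean of the 4 lanes, but in the 384 cells of at least 90% globin 26.3, 27.3, 26.4 and 23.4. Leukocytes of the same lanes held 1392, 1559, 1592 and 1595. Of the 13 mitochondrial transcripts, 0 were called in either direction by edgeR, and their median log2 fold change was 0.04. With library size only, 12 of the 13 were called lower, with a median of -2.84 against -4.70 for all genes. Their share of UMIs outside globin was 5.45% in red blood cells and 4.32% in other cells. Per cell, red blood cells held 20.4, 15.4, 20.3 and 26.8 UMIs of these transcripts at the mean of the 4 lanes. In cells of at least 90% globin the means were 19.0, 9.29, 19.8 and 16.2. Leukocytes held 185, 188, 203 and 194.

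One red blood cell stood apart, in the male lane with 2047 cells, and was singled out after its values were seen. It held 81.1% globin by all 12 genes, 1193 genes and 2830 UMIs outside globin, and met no marker rule of another type. Of the UMIs of all 393 red blood cells it held 8 of 9 for Mki67 and 4 of 4 for Ccnb1, genes of dividing cells, and 17 of 18 for Hmgb2. For early erythroid genes it held 8 of 10 for Cpox, 5 of 6 for Rhag, 9 of 15 for Gypc and 3 of 4 for Tfrc. It also led for Ahsp, with 71 of 639, and for Hemgn, with 23 of 174. Genes abundant in the other red blood cells were low in it: Alas2 was at 77.7 UMIs per 10000 against 392 in the other cells, Mkrn1 at 10.6 against 109, Bnip3l at 10.6 against 104, and Bpgm at 0 UMIs against 91.0. Gata1, Kit and Top2a had 0 UMIs in it.

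**Figure D4:**
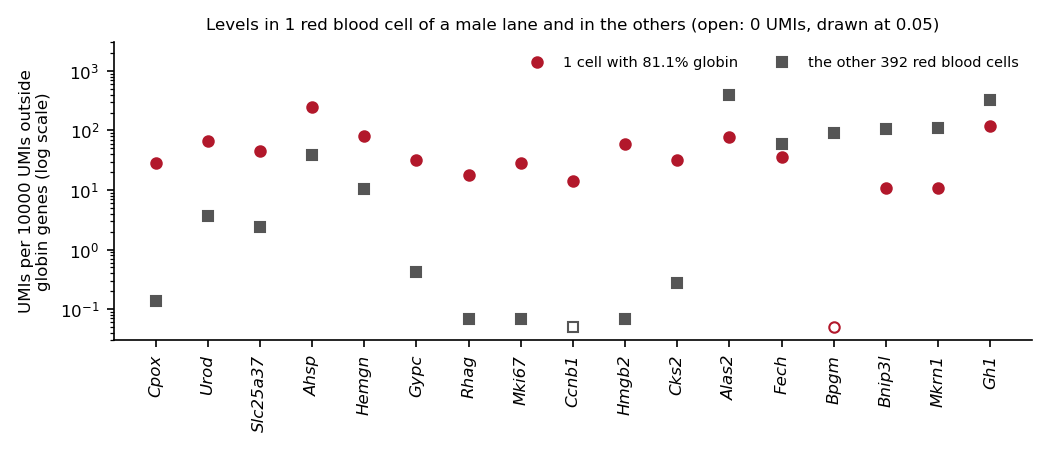
Levels of 17 genes in UMIs per 10000 UMIs outside globin genes (y axis, log scale) in 1 red blood cell of the male lane with 2047 cells (circles) and in the other 392 (squares), with open symbols for 0 UMIs drawn at 0.05. The circle is above the square for Cpox, Urod, Slc25a37, Ahsp, Hemgn, Gypc, Rhag, Mki67, Ccnb1, Hmgb2 and Cks2, and below it for Alas2, Fech, Bpgm, Bnip3l, Mkrn1 and Gh1. By counts of UMIs, which are not drawn, the cell was not low for Alas2, Fech and Gh1.

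Red blood cells make no pituitary hormone, yet hormone transcripts were among their most abundant ones outside globin. Gh1, growth hormone, had 8.93, 10.5, 14.6 and 13.9 UMIs per red blood cell and at least 1 UMI in 99.7% of them, against 100% of leukocytes. Prl, prolactin, had 4.82, 5.90, 1.26 and 1.04, and Pomc 1.10, 1.73, 2.08 and 1.86. Both female lanes were low for Gh1 and high for Prl. All 7 hormone genes (Gh1, Prl, Pomc, Cga, Lhb, Fshb and Tshb) together had 15.4, 19.0, 19.0 and 17.5 UMIs per cell, or 4.73% of the UMIs outside globin. Per 10000 UMIs outside globin all 7 were lower than in the other cells by the test, as were all 4 markers of hormone-producing cells (Resp18, Uchl1, Chgb and Scg2), with a median log2 fold change of -1.94 for the hormones and -2.79 for the markers. The median over all genes tested was -1.83, but where the hormones lay against it depended on the setting. Their median was -1.59 against -7.62 for all genes in cells of at least 90% globin, -1.67 against -7.19 at a limit of 50%, and -1.40 against -0.06 with DESeq2. With DESeq2, only Gh1, Cga, Pomc, Chgb and Resp18 of these 11 genes were called lower, and Prl was at -1.24 (adjusted p = 0.00118).

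Leukocytes and endothelial cells, named by the marker rules of the study, served as classes that should not make hormones either. Leukocytes held 29.0, 33.7, 26.9 and 27.1 UMIs of the 7 hormone genes per cell and endothelial cells 31.9, 40.9, 32.7 and 28.2. Red blood cells were lower in 4 of 4 lanes against each, with ratios of the lane means of 0.608 and 0.530. A permutation of 4 pairs cannot pass 0.05, and the exact test gave its smallest p, 0.13, for both (2-sided, 0.167 after adjustment over 16 comparisons). Median depths were 8310, 6470 and 7335.5 UMIs per cell in the 3 classes.

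The make-up of the hormone UMIs followed the lane. For every 100 UMIs of Gh1, red blood cells held 53.9, 56.0, 8.63 and 7.52 UMIs of Prl, leukocytes 65.6, 65.5, 11.4 and 8.78, and endothelial cells 43.8, 46.9, 8.97 and 5.57. In all other cells together, the ratio was 48.9, 41.0, 9.36 and 7.46. Female and male lanes did not overlap in any class. Pomc was at 12.3, 16.4, 14.3 and 13.4 for every 100 of Gh1 in red blood cells and at 25.8, 31.2, 26.3 and 23.2 in all other cells together. The classes without hormones lay together here, with leukocytes at 12.2, 12.2, 13.4 and 10.9.

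**Figure D5:**
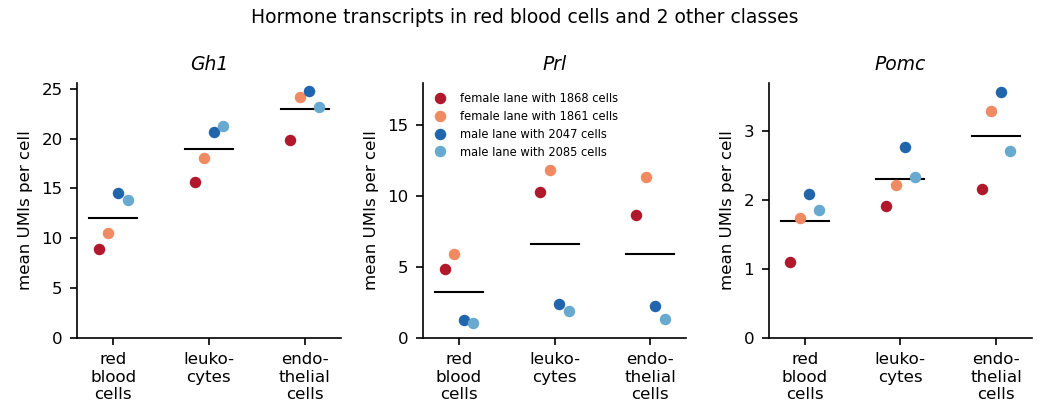
Mean UMIs per cell of Gh1, Prl and Pomc (y axes) in red blood cells, leukocytes and endothelial cells (x axis), with 1 point for each lane and a bar for the mean of the 4 lanes. Red blood cells are lowest in each lane, and Prl is higher in the female lanes in every class.

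Markers of other cell types had few UMIs in red blood cells. The 4 leukocyte markers (Cd53, Tyrobp, Fcer1g and Laptm5) had 137 UMIs in all, led by Fcer1g with 62, and their summed share of UMIs outside globin was 0.149%, 0.176%, 0.0166% and 0.00776%. The 4 endothelial markers had 71 UMIs, led by Plvap with 39, with 0.00585%, 0.156%, 0% and 0%. The female lanes carried nearly all of both, and without the 3 cells that met another marker rule Fcer1g went from 20 and 37 UMIs there to 3 and 2. Of 8 platelet markers, Ppbp, Gp9, Gp1bb, Gp1ba and Tubb1 were at 0, Itga2b and Treml1 had 2 and 6 UMIs, and Pf4 had 23, which edgeR called higher (log2 fold change 2.97, 3 of 4 lanes) but not without the female lane with 1861 cells or the male lane with 2085 cells, nor did DESeq2. Of 7 neutrophil markers 6 were at 0 and Il1b had 3 UMIs. Several of these 0 values say little, since S100a8, S100a9, Np4, Ppbp and Gp1bb had only 1, 4, 1, 3 and 0 UMIs in all other cells. Pericyte markers had 3 UMIs, posterior pituitary markers 11 (8 of Avp), and the 4 folliculostellate markers 36, of which S100b was called lower by edgeR and not by DESeq2. Avp, the 1 posterior pituitary marker tested, was called higher by DESeq2 (log2 fold change 4.14) and not by edgeR (2.34). Its 8 UMIs lay in 3 cells.

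Red blood cells of females and males were compared over 2 lanes each. Of 441 genes that passed the filter on low counts, edgeR called 6 higher in females, a background of 1.36%, and 0 higher in males (0%), with 43 genes at an unadjusted p under 0.05 in both directions together. DESeq2 called 4 and 0. The count in females was 2 without the female lane with 1868 cells, 3 without the female lane with 1861 cells, 17 without the male lane with 2047 cells and 15 without the male lane with 2085 cells, and in males 0, 0, 5 and 4. Without the 1 cell of the male lane with 2047 cells that stood apart, Prl, Lyz2 and Tmsb4x were called in females and 0 genes in males. Of the erythroid lists named above, from haem synthesis to late maturation, 0 members were called in either direction, which does not show that their levels were the same. Ahsp was called lower in females without the male lane with 2085 cells, a call lost without 1 cell, as given above, and Ubb, a ubiquitin gene, was called higher without the male lane with 2047 cells, at 1.52 (adjusted p = 1.3e-07), and under 3 further alternatives. Alas2 differed by -0.11 ± 0.23 on the log2 scale.

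Of the 6 genes, 5 are genes of macrophages and other leukocytes or are abundant in them. Lyz2, lysozyme, had 65, 121, 2 and 2 UMIs, Aif1 24, 34, 0 and 1, C1qc, of complement, 18, 31, 1 and 0, Cd74, the invariant chain, 162, 43, 5 and 8, and Tmsb4x, thymosin beta 4, 225, 418, 32 and 67. The female lanes were high for all 5. Without the 3 cells that also met another marker rule, Lyz2 fell to 2 and 4 UMIs in the female lanes, Cd74 to 7 and 12, and Tmsb4x to 27 and 48, and its log2 difference turned to -0.29. Prl was the sixth, with 496, 661, 108 and 96 UMIs and a log2 difference of 2.27 ± 0.28 (adjusted p = 2.5e-06), and it remained called without those cells (2.52). The call of Prl was lost without the female lane with 1868 cells (2.25, adjusted p = 0.0196) and without the female lane with 1861 cells (2.25, adjusted p = 0.00339). As given above, leukocytes and endothelial cells showed the same order of lanes for Prl.

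Ubb, polyubiquitin, was the 1 other gene that was called without those 3 cells. It had 310, 320, 122 and 111 UMIs, or 90.7 and 72.3 UMIs per 10000 in the female lanes and 40.5 and 28.7 in the male lanes. In all other cells Ubb ran the same way, with 6.12, 5.04, 3.35 and 2.77. The log2 difference was 1.22 ± 0.29 over all red blood cells, not called (adjusted p = 0.00762), and 1.46 without the 3 cells (adjusted p = 0.000983). Among cells of at least 90% globin, the calls were Prl and Ubb in females and LOC689064, one of the 3 beta genes that took larger shares in the lower-Hbb kind, in males (-0.35, adjusted p = 0.000995).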

How the data were processed

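The deposited file is 1 table of UMI counts, whole numbers without further normalization, for 30058 genes and 7861 cells. The authors made these counts with Cell Ranger 2.1, as the submitters' processing notes name it, from an NCBI annotation of the rat assembly Rnor6 in which they had lengthened 3′ ends and to which they had added Ensembl's mitochondrial genes, and they merged the lanes at equal numbers of mapped reads. Such equalizing lowers the depth of the deeper lanes. With 3′ counting, reads may be split between near-identical globin copies, which was not checked. The lanes held 18955509, 20312999, 23425817 and 24048021 UMIs. The suffix of a barcode gives the lane, and the cell numbers of the lanes gave their sex. All 7861 cells were used, before the study's own filters, and no doublet caller was run.

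UMIs of red blood cells and of other cells were summed per lane. edgeR 4.0.16 (glmQLFit, glmQLFTest, TMM factors, filterByExpr with a minimum count of 10, R 4.3.3) gave 2-sided p-values with Benjamini-Hochberg adjustment across every gene tested and a limit of 0.001, and was tested on simulated data. The 4 rule genes were left out of the library sizes. Leukocytes and endothelial cells met 1 marker rule each, with at least 2 of 4 genes above the Otsu threshold of log10 normalized counts, set per sex. The named genes were those of the role lists, the 15 most abundant outside the 12 globin genes, the 20 outside them with the largest fold change among those called in the same direction in 4 lanes with at least 50 UMIs, and up to 10 for each sex. Members and lists were chosen with earlier results of these data known. Intervals are exact (Clopper-Pearson, 95%), and a count of 0 allows 3 UMIs over the group. Promoter windows came from RefSeq (GRCr8), matched by gene ID for 7 of 7 genes, and identities from a global alignment (match 1, mismatch -1, gap -2). No coordinates of the assembly of the counts were used.

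Alternatives were other limits of the rule, library size only, DESeq2 1.42.0, no filter, cells or genes left out, and each lane left out. A few genes of the lists are not reported here by name, though the counts of the lists include them.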

Additional observations from a re-analysis of the deposited data

How the results depend on the processing

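The number of red blood cells, their globin share and the beta share of globin moved by less than the spread between lanes or within 1.5 times under every limit of the rule tried and with each lane left out. The hormone share of UMIs other than the 4 rule genes was 0.566% and became 4.73% with all globin genes left out, an alternative added after seeing the data, since the further globin genes fill most of the remainder. In the comparison with other cells, library size only gave 119 genes higher and 8012 lower, DESeq2 8 lower, a limit of 50% 544 lower and, added after seeing the data, cells of at least 90% globin 614 lower. With each lane left out, 209 to 229 genes were higher and 111 to 208 lower. Leaving out the female lane with 1868 cells gave 111 lower and the female lane with 1861 cells 134 lower.

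Log2 fold changes that turned with library size only were -0.33 for Fth1, -0.15 for Tpt1, -2.59 for Rpl41, -2.69 for Mt-atp6, -2.61 for Mt-co3, -0.016 for Gypc, -0.20 for Ube2l6, -0.80 for Bcl2l1, -0.25 for Ypel3 and -1.61 for Eif1. This setting scales by the summed UMIs, which in red blood cells are mostly those of the further globin genes. Of 898 values of single genes under the alternatives, 835 kept their direction and call, 50 lost the call, 12 turned and 1 gained it. Without the male lane with 2047 cells, Gypc was at 1.74 (adjusted p = 0.518).

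Between the sexes, 6 genes higher in females became 3 with library size only, 13 without the filter, 11 with the 4 rule genes kept, 2 without cells meeting another marker rule and 2 among cells of at least 90% globin (the last added after seeing the data). Without the 1 cell that stood apart, also added after seeing the data, 3 were higher in females (Prl, Lyz2 and Tmsb4x). Without it and the male lane with 2085 cells, 8 were higher in females and 3 in males (Alox15, Tshb and Pabpc1). Higher in males were 1 with the rule genes kept (Tshb) and 1 among cells of at least 90% globin. With each lane left out, 2 to 17 were higher in females and 0 to 5 in males. Without the female lane with 1868 cells 2 were higher in females, without the female lane with 1861 cells 3, without the male lane with 2047 cells 17 and without the male lane with 2085 cells 15. In these fits the lone lane is assumed to vary like the other sex. Tmsb4x turned to -0.29 without cells meeting another marker rule and to -0.51 among cells of at least 90% globin.

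Red blood cells and other cells were paired within lanes, with the lane as a block. Between the sexes, no paired analysis was possible because the barcodes carry no replicate number, so lanes of the sexes cannot be matched. Depth limits what is seen outside globin: a lane's red blood cells held 30093 to 44260 such UMIs.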

Other observations

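LOC287167, an alpha-globin gene outside the rule (Hba-a3 in RefSeq), was also found outside red blood cells, in hormone-producing cells of the female lanes. Cells that met only the marker rule of hormone-producing cells held 1576 and 1767 UMIs of it in the female lanes, and 20 and 18 in the male lanes. At least 1 UMI was seen in 405 of 1794 such female cells (22.6%) and in 34 of 2137 male cells (1.59%), at median depths of 11845 and 12541 UMIs. Among leukocytes, which should lack it, 7 of 280 female cells (2.50%) and 1 of 315 male cells had a UMI, at median depths of 6462.5 and 6479. One female cell reached 181 UMIs. Hba1, the most abundant globin gene of red blood cells, did not follow this pattern, with 0.942, 1.22, 0.859 and 0.870 UMIs per hormone-producing cell in the 4 lanes.

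The 204 female hormone-producing cells with at least 3 UMIs of LOC287167 were richer in gonadotroph transcripts than the 1389 with 0, a description of cells chosen by this gene and without a test. Means per cell were 356 against 43.8 UMIs for Lhb, 438 against 84.3 for Cga, 9.72 against 0.759 for Fshb and 4.88 against 0.549 for Gnrhr, the receptor of gonadotropin-releasing hormone. Gh1 and Tshb were higher as well, at 1929 against 1706 and 7.79 against 4.20. Prl was lower, at 528 against 855, as was Pomc, at 31.5 against 664. Hba1 was at 1.41 against 1.02. Whether reads of another gene were counted as LOC287167 was not tested, and sex cannot be told apart from pool and age.

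Elsewhere globin was scarce. Leukocytes held 1.27 globin UMIs at the mean and endothelial cells 1.66, against 8541 in red blood cells, which is 0.0185% of their UMIs in both classes. The 12 globin genes gave at least 1 UMI in 78.6% of the 7468 other cells. Alpha genes made up 54.6% of the globin UMIs of leukocytes and 62.9% of those of endothelial cells, against 50.9% in red blood cells.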
